A study of Mus musculus with 2 samples.

Results

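The values below describe 10 genes that mark blood vessel endothelium, in E11.5 mouse embryos measured cell by cell. They are the VEGF receptors Kdr, Flt1 and Flt4, the TIE receptors Tek and Tie1, the TGF-beta co-receptor Eng, the adhesion and junction genes Pecam1, Cdh5 and Cldn5, and the surface sialomucin Emcn. The 10 genes were taken from a fixed list of names, and all 10 were found among the 21937 gene features of the count matrices. The deposited cell type table assigned 5678 of 6006 barcodes to 16 cell types, and the type called Hematoendothelial Progenitor/Endothelium (76 cells) is the one the description centres on.

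All embryos carried EGFP from the CAG promoter, active in most tissues, next to a DNA barcode, brought in with the piggyBac transposon. F0_8 and F0_9 were founder embryos that developed from eggs given transposase mRNA by electroporation and donor DNA by microinjection. F1_1 was an embryo of the F1 generation, and F1_mix was an artificial mosaic of cells from 2 other F1 embryos, counted as 1 sample in each test. The methods of the study give C57BL/6J for both parents of the founder eggs, and no wild-type embryo was measured. Each suspension received its own multiplexing oligo, and the 4 were pooled and captured as 1 droplet library with 3′ UMI counting, so that each embryo or mix is 1 sample and founders and F1 had 2 each.

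Endothelial cells line every vessel. VEGF binds KDR, the main signalling receptor for endothelial growth, while FLT1 holds VEGF with little signalling of its own and FLT4 is the receptor of VEGF-C in early vessels and later in lymphatics. TEK is the angiopoietin receptor and TIE1 its related co-receptor, endoglin presents BMP9 and BMP10 to ALK1, and VE-cadherin (Cdh5), claudin-5 and PECAM-1 hold neighbouring endothelial cells together. Endomucin is a surface glycoprotein richer on veins and capillaries than on arteries, and several of these genes are also used by blood progenitors, macrophages or platelets, Pecam1 most widely.

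RefSeq gave the sequence before the annotated start for 8 of the 10 genes on mouse build GRCm38.p6 (Pecam1 and Cdh5 had no entry). The 250 bases before the start that the RefSeq promoter table uses are shown for the 2 genes of these 8 with the highest share of their UMIs in the type (Cldn5, Tie1) and the 2 with the lowest (Eng, Tek). Each is written 5′ to 3′ on the strand of its gene, and capitals mark GGAA or its reverse complement TTCC, the core letters that ETS factors bind. The starts in this table need not be the outer end of the gene: 203 of the 250 Tek bases lie inside the gene span given below, while the Cldn5, Tie1 and Eng windows lie wholly outside theirs.
Cldn5, chr16:18776597-18776846, + strand: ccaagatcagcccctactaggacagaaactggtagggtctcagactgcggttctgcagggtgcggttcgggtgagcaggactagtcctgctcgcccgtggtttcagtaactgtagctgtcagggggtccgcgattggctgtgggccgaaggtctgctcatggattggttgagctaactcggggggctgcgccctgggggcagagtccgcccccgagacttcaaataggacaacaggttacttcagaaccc
Tie1, chr4:118489850-118490099, - strand: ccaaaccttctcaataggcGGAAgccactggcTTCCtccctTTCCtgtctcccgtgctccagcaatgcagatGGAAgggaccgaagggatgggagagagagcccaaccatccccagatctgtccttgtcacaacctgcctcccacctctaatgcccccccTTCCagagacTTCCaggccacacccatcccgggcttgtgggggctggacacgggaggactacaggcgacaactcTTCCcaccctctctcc
Eng, chr2:32646345-32646594, + strand: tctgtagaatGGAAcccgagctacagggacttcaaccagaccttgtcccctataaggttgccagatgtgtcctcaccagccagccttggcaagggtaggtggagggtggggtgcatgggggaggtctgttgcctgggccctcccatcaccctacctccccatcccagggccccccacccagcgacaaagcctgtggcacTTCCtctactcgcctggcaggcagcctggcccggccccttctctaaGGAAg
Tek, chr4:94739039-94739288, + strand: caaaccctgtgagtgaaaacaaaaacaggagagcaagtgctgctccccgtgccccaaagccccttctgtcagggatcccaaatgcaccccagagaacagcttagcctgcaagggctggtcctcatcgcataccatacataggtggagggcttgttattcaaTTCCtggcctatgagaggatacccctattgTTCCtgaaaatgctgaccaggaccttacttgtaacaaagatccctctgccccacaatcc

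GGAA was searched on both strands, and it occurred 0 times in the Cldn5 window, 7 times in that of Tie1, 3 times in that of Eng and 2 times in that of Tek. The Kdr, Flt1 and Emcn windows each held 4 matches and that of Flt4 held 2. Of 32851 RefSeq promoter windows of the same length, 93.4% held at least 1 match, with a median of 3. These matches are a description of the letters and not of binding.

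Depth was similar across suspensions, with 16052917 to 19160116 gene UMIs in used cells, and the type contributed 289385 to 492752 of them from 15 to 25 cells (F0_8 18, F0_9 25, F1_1 15, F1_mix 18). Its cells had a median of 17279.5 gene UMIs, and medians by suspension lay between 16289 and 17619.5. Where 4 values of a gene follow each other below, they are in the order F0_8, F0_9, F1_1, F1_mix. No barcode occurred in more than 1 suspension. Levels are UMIs per 10000 gene UMIs, and since a 3′ tag gives about the same count whatever the transcript length but with unknown capture per gene, levels are compared between cells for 1 gene and not between genes. Intervals are 95% exact Poisson for levels and 95% exact binomial for shares, and they cover counting error only.

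The endothelial part of the type's name was checked against marker genes that do not include any of the 10. Its progenitor part was not checked cell by cell. The 5 blood progenitor genes listed (Kit, Runx1, Gfi1, Myb, Spi1) had summed type levels of 7.75, 7.33, 6.36 and 7.04. A cell was called an endothelial-gene cell when it held UMIs of 3 or more of 16 endothelial genes (Egfl7, Ramp2, Esam, Sox17, Erg and others) and of under 3 of 14 macrophage genes (Csf1r, Fcer1g, C1qa and others), and a macrophage-gene cell in the reverse case. By this split 26 of the 76 cells were endothelial-gene cells (34.2%, 23.7 to 46.0), 47 were macrophage-gene cells (61.8%), 2 had both and 1 had neither. The endothelial-gene cells numbered 7, 7, 7 and 5 by suspension, beside 11, 17, 7 and 12 macrophage-gene cells. Fcer1g, an immunoglobulin receptor subunit of myeloid cells, had 1614 of its 1641 UMIs in the macrophage-gene cells, and Ramp2, an adrenomedullin receptor partner needed in vessels, had 499 of its 503 in the endothelial-gene cells. By this split most cells of the type carried macrophage genes, and a level over the whole type depends on how many endothelial-gene cells it holds. With limits of 2 or 5 genes in place of 3, 52.6% (40.8 to 64.2) and 53.9% (42.1 to 65.5) were macrophage-gene cells. Of the 76 cells, 33 held 12 or more macrophage genes.

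All 10 genes had more UMIs in the type than in any other. Together they had 2732 UMIs in used cells, of which 2035 (74.5%, 72.8 to 76.1) lay in the 76 cells of the type, although these held 1.34% of the cells and 2.06% of the gene UMIs. The share by suspension was 75.4%, 77.6%, 72.8% and 71.6%. The 26 endothelial-gene cells alone held 1955 of the UMIs (71.6%). Because the types were made by clustering on expression that includes these genes, the difference between the type and the rest is a description and carries no test.

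**Figure D1:**
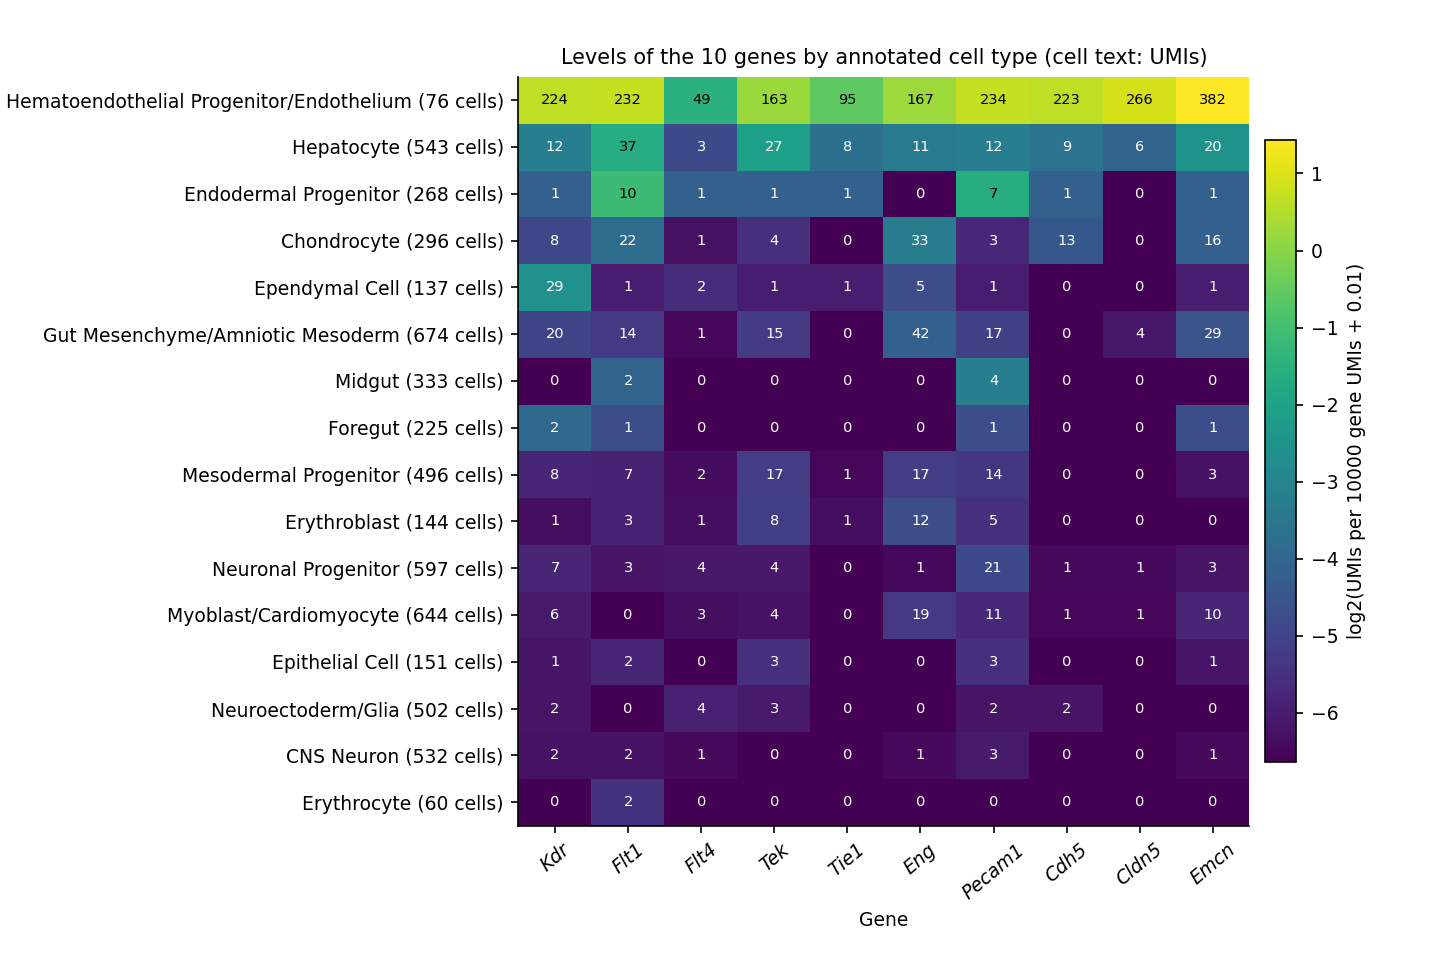
Level of each of the 10 genes (columns) in each of the 16 cell types (rows, with cell numbers), as log2 of UMIs per 10000 gene UMIs plus 0.01 (colour), with the UMIs written in each field. The top row, Hematoendothelial Progenitor/Endothelium, is the brightest in every column, with 49 UMIs of Flt4 to 382 of Emcn.

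The genes differed in how closely they kept to the type. Cldn5, the main tight junction claudin of endothelium, had 266 of 278 UMIs there (95.7%, 92.6 to 97.8), Cdh5 had 223 of 250 (89.2%, 84.7 to 92.8) and Tie1 had 95 of 107 (88.8%, 81.2 to 94.1). Emcn followed with 382 of 468 (81.6%, 77.8 to 85.0). The VEGF receptors and Pecam1 lay close together, with 224 of 323 for Kdr (69.3%, 64.0 to 74.3), 232 of 338 for Flt1 (68.6%, 63.4 to 73.6), 49 of 72 for Flt4 (68.1%, 56.0 to 78.6) and 234 of 338 for Pecam1 (69.2%, 64.0 to 74.1). These 4 shares lay within each other's intervals. Tek had 163 of 250 (65.2%, 58.9 to 71.1), and Eng was lowest with 167 of 308 (54.2%, 48.5 to 59.9). Eng was thus the least and Cldn5 the most confined of the 10.

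The place of the genes among all others depended on which cells were counted. Ordered by the share of UMIs in the whole type, which also holds the macrophage genes, Cldn5 was number 19 of 12108 genes with 200 or more UMIs, Cdh5 36, Emcn 43, Kdr 58, Pecam1 59, Flt1 60, Tek 68 and Eng 90. In the endothelial-gene cells they stood nearer the top. Of the 12108 genes, 11 had at least 50% of their UMIs in the 26 endothelial-gene cells, whereas the median gene had 0.543% there and these cells held 0.637% of all UMIs. Ordered by that share, Cldn5, Cdh5 and Emcn led the order, Kdr was number 5, Flt1 6, Tek 8, Pecam1 9 and Eng 12. The places between were taken by Esam, Plvap, Gimap6 and Ecscr, and Flt4 and Tie1 had too few UMIs to be ordered. The endothelial-gene cells were chosen with Esam, Plvap and Ecscr among the 16 genes, so the places of those 3 follow from the choice.

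Within the type the 10 genes followed the endothelial-gene cells almost wholly. Their summed level was 44.5 UMIs per 10000 (42.5 to 46.5) in those cells and 14.3 (13.7 to 14.97) over the whole type. The 47 macrophage-gene cells held 54 UMIs of the 10 genes in 23 cells, and 29 of these were Pecam1, found in 16 of the cells. Eng gave 10 UMIs in 6 macrophage-gene cells and Tek 5 in 2, Flt1 gave 3, Kdr, Tie1 and Cdh5 gave 2 each, Emcn gave 1, and Flt4 and Cldn5 gave none. The 2 cells with both sets of genes held 19 UMIs, and the cell with neither held 7. Of the 54 UMIs in macrophage-gene cells, 10 and 8 lay in 2 F0_8 cells with just 4 macrophage genes each. All 5 megakaryocyte genes were found in 3 cells of the type, which are already counted above: the macrophage-gene cell with 10 UMIs, the cell with neither set, and 1 endothelial-gene cell of F1_1 with 6 UMIs. Together these 3 cells held 23 UMIs of the 10 genes, 8 of them Pecam1, a gene that platelets also use.

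**Figure D2:**
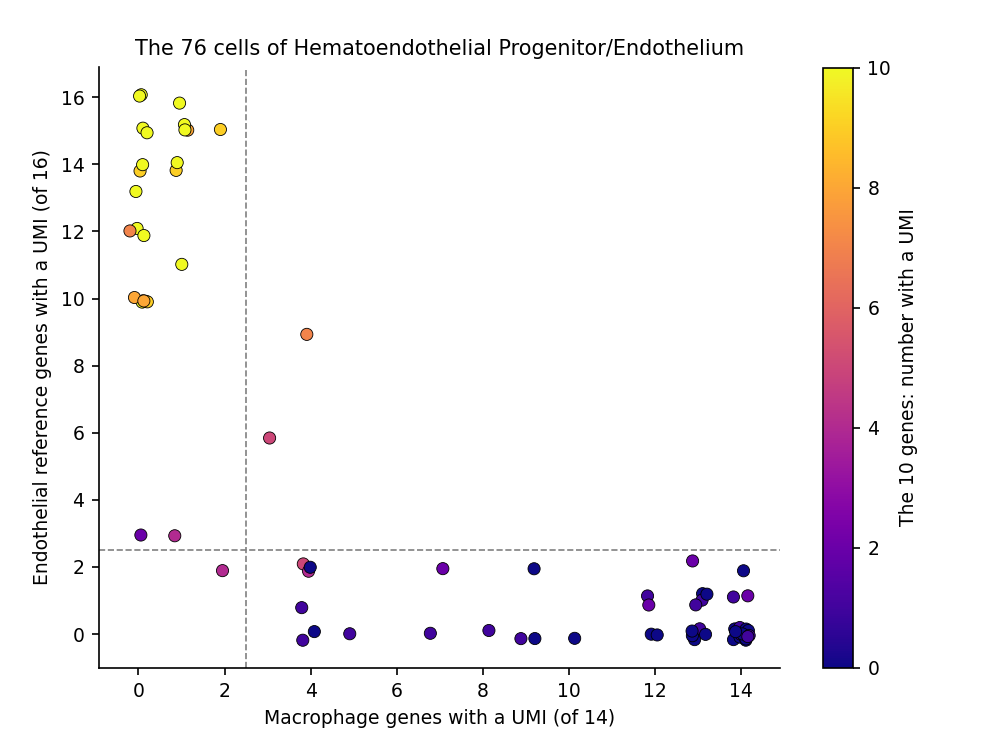
Each of the 76 cells of the type as 1 point, by the number of 16 endothelial reference genes and of 14 macrophage genes with a UMI, coloured by how many of the 10 genes it held. The dashed lines mark the limit of 3 genes. The 47 macrophage-gene cells hold at most 2 reference genes, and 24 of the 26 endothelial-gene cells hold 10 to 16 of them.

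Of the 26 endothelial-gene cells, 24 held 10 to 16 of the reference genes and 2 held just 3. One of these 2, in F0_9, held 4 mural genes and 3 UMIs of the 10 genes, and the other, in F1_1, held all 5 megakaryocyte genes and 6 UMIs of the 10. The 24 clear cells (9 or more reference genes, a limit set after their values were seen) held 29 to 126 UMIs of the 10 genes per cell, with a median of 83. All 10 genes were detected together in 14 of these cells, 9 or more in 19 and 7 or more in all 24. Kdr, Eng, Pecam1 and Cdh5 had a UMI in each of the 24 cells, Flt1 and Tie1 were missing in 1 each, Tek and Emcn in 2, Cldn5 in 3 and Flt4 in 8. Flt4 had the fewest UMIs of the 10 genes, so its gaps cannot be read as cells without it.

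The genes were also found together at an equal, lower depth. After each cell was thinned to 5000 gene UMIs, 23 of 25 endothelial-gene cells (1 shallower cell was left out) still held 5 or more of the 10 genes, with a median of 8, whereas the macrophage-gene cells held at most 2, with a median of 0. Among these 25 thinned cells the pair with the highest rank correlation was Cdh5 with Cldn5 (Spearman 0.58) and the next was Pecam1 with Emcn (0.50), while Eng with Emcn (-0.36) and Tek with Pecam1 (-0.27) were lowest. The 25 cells share 4 embryos or mixes and 1 library, and the counts per cell are low, so these are descriptions.

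**Figure D3:**
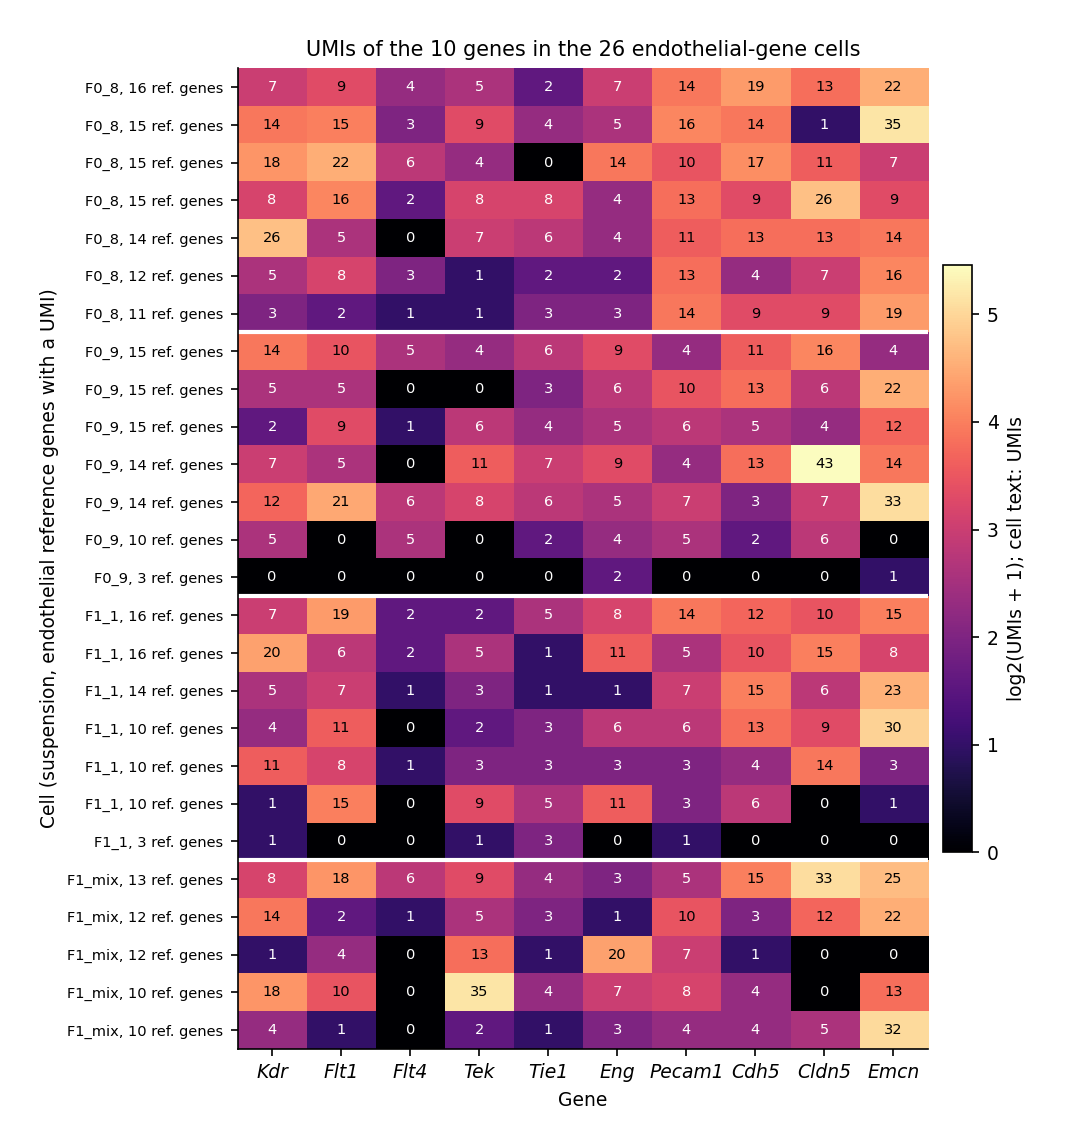
UMIs of each of the 10 genes (columns) in each single endothelial-gene cell (rows, grouped by suspension). Among the 26 cells 24 show 7 to 10 genes at once, Flt4 is the most often empty column, and 1 F1_mix cell stands apart with 35 UMIs of Tek.

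Kdr (chromosome 5, 75932827 to 75979072, GRCm38.p6) had levels over the type of 2.68, 0.913, 1.76 and 1.38, and in the endothelial-gene cells 5.81, 4.46, 3.99 and 5.89. F0_8 was highest over the type, but in the endothelial-gene cells founders and F1 lay in the same range. It was detected in 25 of the 26 endothelial-gene cells. Flt1 (chromosome 5, 147561604 to 147726438), the decoy-like receptor, had type levels of 2.55, 1.06, 2.28 and 1.08 in the same order. In the endothelial-gene cells it was even, with 5.53, 4.95, 5.38 and 4.58, and the groups overlapped on both scales.

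Flt4 (chromosome 11, 49609679 to 49652739), the VEGF-C receptor, had just 49 UMIs in the type, all of them in 16 endothelial-gene cells. Its type levels were 0.621, 0.345, 0.207 and 0.211, and its levels in the endothelial-gene cells were 1.36, 1.68, 0.489 and 0.917. Both founders lay above both F1 suspensions on each scale, with 19 and 17 against 6 and 7 UMIs. Flt4 was the one gene of the 10 whose type levels did not overlap, where 27.5% of the 5520 genes tested in the type did not (16.8% with founders higher). The ligand Vegfc had 50 UMIs in 12 of the 26 endothelial-gene cells, and Vegfa had 6 in 4 of them.

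Tek (chromosome 4, 94739086 to 94874976), the angiopoietin receptor TIE2, had type levels of 1.18, 0.710, 0.898 and 1.99. In the endothelial-gene cells the levels were 2.51, 2.87, 2.04 and 8.38. The high value of F1_mix came largely from 1 cell, which held 35 of its 64 Tek UMIs, where no other cell had more than 13. Without that cell the F1_mix level was 4.93 (3.30 to 7.08), still the highest of the 4. That interval overlapped those of F0_8 (1.75 to 3.49) and F0_9 (1.92 to 4.13) and lay above that of F1_1 (1.32 to 3.01). Tie1 (chromosome 4, 118471191 to 118489849) had type levels of 0.850, 0.589, 0.864 and 0.451, which overlapped, and endothelial-gene cell levels of 1.79, 2.77, 1.71 and 1.70. Both founders were higher for Tie1 in those cells by a narrow margin, and in the 24 clear cells the groups overlapped.

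Eng (chromosome 2, 32646595 to 32682669), endoglin, had type levels of 1.37, 0.913, 1.52 and 1.08 and endothelial-gene cell levels of 2.80, 3.96, 3.26 and 4.45. Founders and F1 overlapped on both scales. It was found in 25 of the 26 endothelial-gene cells.

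Pecam1 (chromosome 11, 106654213 to 106715281), the adhesion receptor CD31, had type levels of 3.50, 0.954, 1.38 and 1.20. F0_8 stood above the other 3, also in the endothelial-gene cells, where the levels were 6.53, 3.57, 3.18 and 4.45. The other founder was lowest over the type, so the groups overlapped. The megakaryocyte genes were also highest in F0_8, with summed type levels of 60.0, 1.46, 30.5 and 3.19 (in F0_8, 1 cell held 1443 of the 1569 UMIs of Pf4), and their part in the Pecam1 level over the type was not tested.

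Cdh5 (chromosome 8, 104101613 to 104144504), the adherens junction cadherin, had type levels of 2.81, 0.994, 2.11 and 0.813 and endothelial-gene cell levels of 6.10, 4.66, 4.89 and 3.54. Cldn5 (chromosome 16, 18776847 to 18778262) had type levels of 2.62, 1.66, 1.87 and 1.505, and 5.74, 8.12, 4.40 and 6.55 in the endothelial-gene cells, and it had no UMI in the type outside these cells. Emcn (chromosome 3, 137341062 to 137431069), endomucin, had type levels of 4.02, 1.77, 2.76 and 2.77 and endothelial-gene cell levels of 8.76, 8.52, 6.52 and 12.05. Founders and F1 overlapped for each of these genes on both scales.

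**Figure D4:**
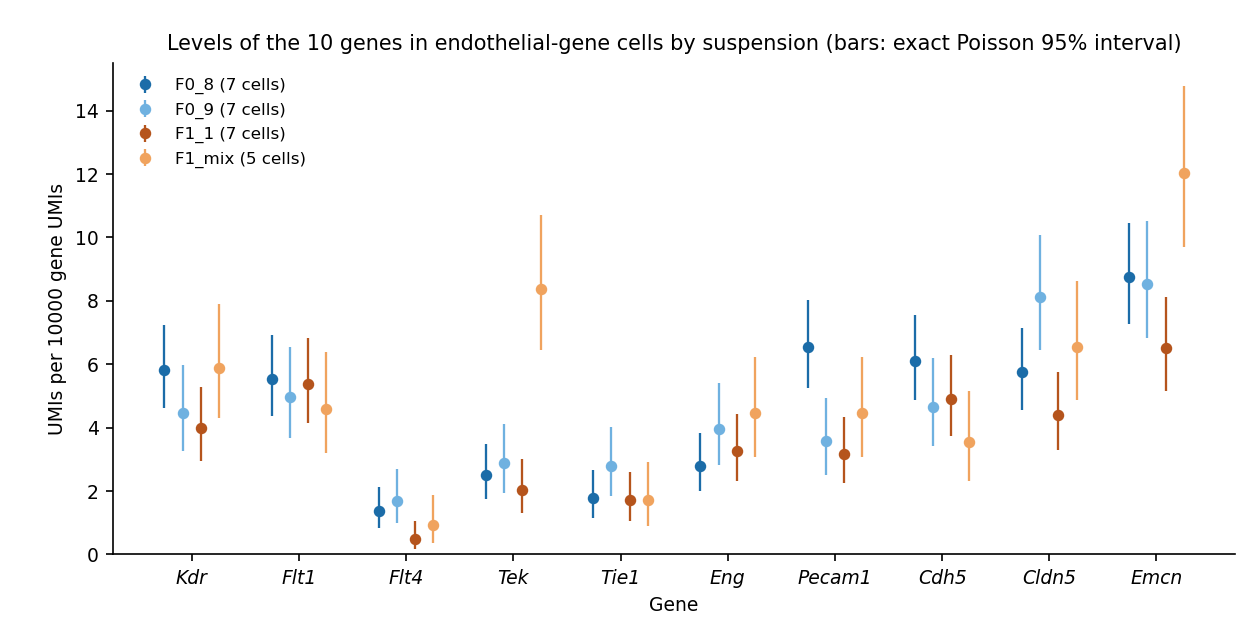
Level of each of the 10 genes in the endothelial-gene cells of each suspension, as UMIs per 10000 gene UMIs with 95% exact Poisson intervals that cover counting error. The intervals of most genes overlap across F0_8, F0_9, F1_1 and F1_mix, and Tek in F1_mix (8.38) stands above its other 3 values. Intervals also lie apart for Emcn in F1_mix (12.05) and F1_1 (6.52), Cldn5 in F0_9 (8.12) and F1_1 (4.40), and Pecam1 in F0_8 (6.53) and F1_1 (3.18).

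The question of whether the founder generation differs from the F1 generation was tested on UMIs summed over the type per suspension with edgeR's quasi-likelihood test, 2 founders against 2 F1. None of the 10 genes was called at an adjusted p under 0.05, where 2 of 5520 genes tested were called (0.0362%) and 150 had an unadjusted p under 0.05. DESeq2 called 7 genes and also none of the 10, and edgeR called 92 without a filter on low counts and 75, 51, 85 and 17 with F0_8, F0_9, F1_1 or F1_mix left out, again none of the 10. In the fit with all 4 suspensions and the filter, none of the 10 had an unadjusted p under 0.05, and the adjusted p was 0.99984 for each. In the other edgeR fits an unadjusted p under 0.05 occurred for Flt4 without the filter and without F0_9, for Pecam1 without F0_9, for Tek without F0_8 and without F1_1, and for Cdh5 without F1_1. The lowest adjusted p by edgeR among these was 0.200, for Pecam1. The log2 difference of founders over F1 was 1.11 (SE 0.53) for Flt4, 0.69 (SE 0.54) for Pecam1 and -0.70 (SE 0.44) for Tek. For the VEGF receptors Kdr and Flt1 it was 0.10 (SE 0.48) and 0.02 (SE 0.49). Cdh5 had 0.30 (SE 0.57), Cldn5 0.28 (SE 0.32), Tie1 0.07 (SE 0.42), Emcn -0.01 (SE 0.38) and Eng -0.25 (SE 0.34). The median over the 10 genes was 0.09, beside 0.00494 over all genes tested. With standard errors of 0.32 to 0.57 on the log2 scale, a p that misses the threshold does not show equal levels. Other marker lists also varied between the suspensions of a group, with summed type levels of 64.0, 76.7, 55.8 and 108 for the 14 macrophage genes and of 0.949, 0.629, 396 and 0.782 for 6 erythroid genes (in F1_1, 1 cell held 6287 of 6300 UMIs of Hbb-y), and their part in the type levels was not tested.

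The 2 genes that were called, named here after their values were seen, were S100a8 and Stfa1, both higher in founders and both expressed by neutrophils. S100a8 had 464, 711, 0 and 1 UMIs (log2 9.52, SE 0.48, adjusted p = 0.000359 by edgeR), and Stfa1 had 213, 787, 1 and 1 (log2 8.30, SE 0.67, adjusted p = 0.00674 by edgeR). Neither had a UMI in the endothelial-gene cells. Summed over those cells alone, 0 of 2496 genes (0%) were called by edgeR, none of the 10 among them, and 98 had an unadjusted p under 0.05. Flt4 then had a log2 difference of 1.08 (SE 0.51) and Tek of -1.01 (SE 0.61), and the adjusted p of all 10 genes was 0.999 by edgeR. Flt4 and Tie1, both higher in founders, were the 2 of the 10 genes that did not overlap in these cells, where 30.7% of the genes tested did not (18.3% with founders higher).

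Arterial and venous endothelium differ in several of these genes, and the 24 clear cells were grouped by whether they held more UMIs of 8 arterial genes (Dll4, Gja4, Gja5, Efnb2, Hey1, Cxcr4, Unc5b, Jag1) or of 3 venous genes (Nr2f2, Ephb4, Aplnr). This gave 5 more arterial cells, with 145 arterial against 17 venous UMIs, and 19 more venous cells, with 58 against 262. The arterial cells were 1, 1, 2 and 1 by suspension, and the venous cells 6, 5, 4 and 4. The grouping was added after the data were seen and uses none of the 10 genes. Every clear cell was placed in 1 of the 2 groups, also the 4 cells with a lymphatic gene. Some margins were narrow, as in 1 F0_8 cell with 8 arterial against 11 venous UMIs.

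Emcn had a pooled level of 4.53 (3.22 to 6.19) in the arterial and 10.7 (9.57 to 11.9) in the venous cells. By suspension its arterial levels were 4.36, 10.6, 4.63 and 0, and its venous levels 9.52, 9.08, 10.2 and 15.7. Venous cells were higher in 3 of 4 suspensions, and F0_9 went the other way. Kdr was also lower in arterial cells, at 2.79 (1.78 to 4.14) against 6.12 (5.30 to 7.05), with arterial levels of 3.88, 5.28, 2.31 and 0.564 and venous levels of 6.15, 4.86, 6.37 and 7.50. Again F0_9 alone went the other way. Flt4 was higher in the venous cells of all 4 suspensions, with arterial levels of 0.970, 0, 0.579 and 0 against 1.43, 2.17, 0.637 and 1.19, but it rests on 4 arterial UMIs.

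Eng was higher in the arterial cells, at 6.04 (4.51 to 7.91) against 3.11 (2.53 to 3.79). Its arterial levels were 1.94, 6.79, 5.50 and 11.3 and its venous levels 2.95, 3.71, 3.34 and 2.39, so that arterial cells were higher in 3 of 4 suspensions, F0_8 being the exception. Of the 52 arterial Eng UMIs 20 lay in the 1 arterial cell of F1_mix, and without it the level was 4.68 (3.198 to 6.601), which overlapped the venous interval. For Emcn and Kdr the arterial interval stayed below the venous one with any 1 of the 5 arterial cells left out, at levels of 3.43 to 5.70 for Emcn and 2.33 to 3.36 for Kdr. This left out cells and not embryos, and in F0_9 both genes were higher in the arterial cell. Tie1 (3.02 against 1.82) and Tek (4.99 against 3.42) were also higher in arterial cells of 3 of 4, but their pooled intervals overlapped, at 1.97 to 4.42 against 1.38 to 2.35 for Tie1 and 3.61 to 6.72 against 2.81 to 4.13 for Tek. Cldn5 had 9.17 (7.26 to 11.4) in arterial against 5.87 (5.06 to 6.78) in venous cells, intervals that did not overlap, but it was found in 3 of the 5 arterial cells, with 43 and 26 of the 79 UMIs in 2 of them, and without the former it was 4.94 (3.46 to 6.84). Pecam1 (4.76 against 4.96), Cdh5 (4.76 against 5.59) and Flt1 (6.85 against 5.31) had overlapping intervals, as did the sum of all 10 genes (47.4 against 48.3).

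With 4 suspensions as pairs, an exact two-sided permutation test of the mean difference cannot go below p = 0.125. Flt4 reached 0.125, Kdr, Emcn, Eng and Tie1 gave exact p = 0.25 each, Tek 0.375, and the others 0.75 or more. Adjusted over the 10 genes the lowest was 0.5 by the exact permutation test. No gene could pass the threshold in this design, and the pooled intervals rest on few cells.

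**Figure D5:**
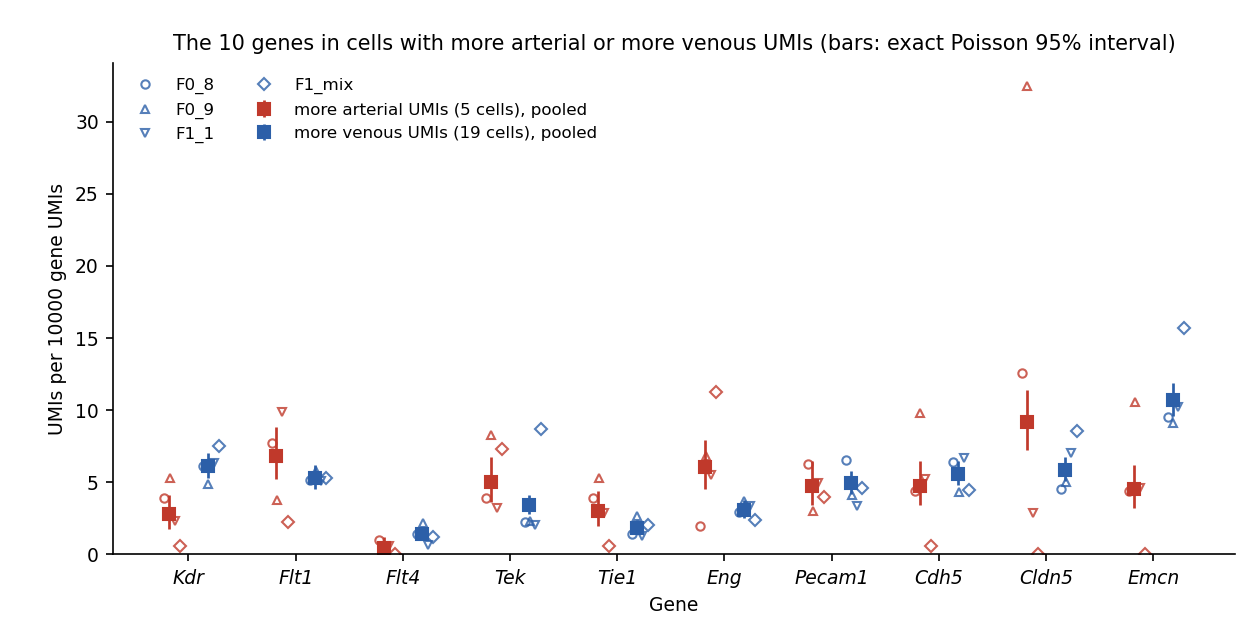
Level of each of the 10 genes in the 5 more arterial and the 19 more venous clear cells, as UMIs per 10000 gene UMIs with 95% exact Poisson intervals (squares) and the value of each suspension (open symbols). Emcn and Kdr lie higher in the venous cells, with 10.7 and 6.12 against 4.53 and 2.79, and Eng lies higher in the arterial cells, with 6.04 against 3.11 (4.68 without the F1_mix cell).

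Outside the type the 10 genes had 697 UMIs in 405 cells. Of these, 170 (24.4%) lay in 15 cells with 3 or more of the genes, and 7 of these 15 were annotated Hepatocyte. The strongest, in F0_9, held 9 of the 10 genes with 43 UMIs, and also 11 of the 16 endothelial reference genes, within the 10 to 16 of the clear endothelial-gene cells. The other Hepatocyte cells of the 15 had 928 to 2438 gene UMIs and a mitochondrial share of 5.76% to 35.8%. Any of the 10 genes was found in 52 of 76 cells of the type (68.4%, 56.7 to 78.6), and in 405 of 5602 cells of the other types (7.23%). Among these types the share ran from 1.80% in Midgut and 1.88% in CNS Neuron (10 of 532 cells) to 16.9% in Chondrocyte and 18.2% in Ependymal Cell. Such a share depends on depth, and the median gene UMIs per cell were 998, 10898.5, 11653.5 and 12100 in the order named. Droplets of 1 to 99 UMIs, which hold free RNA, had the 10 genes at a summed 0.267 per 10000 and those of 100 to 300 UMIs at 0.376, beside 0.103 in the cells of the other types.

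Single genes had their own second type. Kdr came next in Ependymal Cell, at 0.159 (0.106 to 0.228), with 29 UMIs in 17 of 137 cells (12.4%, 7.40 to 19.1). By suspension they were 7 of 40, 5 of 32, 2 of 32 and 3 of 33, 16 of the 17 had no other gene of the 10, and none had 3 or more endothelial reference genes. The exception, in F0_8, also held 1 UMI each of Flt1 and Flt4. The free-RNA levels of Kdr were 0.0203 and 0.0405, below that interval. Eng came next in Chondrocyte, at 0.0940 (0.0647 to 0.132), with 33 UMIs in 24 of 296 cells (8.11%), and had 42 UMIs in 38 of 674 Gut Mesenchyme/Amniotic Mesoderm cells (5.64%). Its free-RNA levels were 0.0338 and 0.0535, both below the interval of Chondrocyte and both within that of Gut Mesenchyme/Amniotic Mesoderm (0.0464, 0.0334 to 0.0627). At similar depth Eng had 1 UMI in 532 CNS Neuron cells (0.00164, up to 0.00911) and 1 in 597 Neuronal Progenitor cells (0.00118, up to 0.00657). Ependymal Cell, also of similar depth, had 5 UMIs (0.0274, 0.00890 to 0.0640), an interval that overlapped that of Gut Mesenchyme/Amniotic Mesoderm. The deeper Mesodermal Progenitor (0.0177) and Myoblast/Cardiomyocyte (0.0153) lay between. The part of free RNA in these Eng levels was not tested. The Eng level of the Hematoendothelial Progenitor/Endothelium type was 12.5 times that of Chondrocyte.

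Hepatocyte was the next type for Tek (0.226, 0.149 to 0.328), Emcn (0.167), Cdh5 (0.0753), Tie1 (0.0669) and Cldn5 (0.0502), with type levels 5.08, 16.1, 20.9, 10.0 and 37.3 times as high. These Hepatocyte levels rest on few of its 543 cells: the 7 cells with 3 or more of the genes held 15 of 27 Tek UMIs, 16 of 20 for Emcn, 7 of 9 for Cdh5, 7 of 8 for Tie1 and 4 of 6 for Cldn5. Cldn5 was at 0 in 11 types. Flt1 came next in Endodermal Progenitor (0.451, 0.216 to 0.829), where 9 of its 10 UMIs lay in 1 cell, and in 1 suspension this lifted it above the Hematoendothelial Progenitor/Endothelium type. Pecam1 came next in the same type (0.316, from 7 UMIs). Its 21 UMIs in 20 Neuronal Progenitor cells gave a level of 0.0248 (0.0153 to 0.0379), with 4 to 6 UMIs in each suspension. That was below its free-RNA levels of 0.0540 and 0.0405 in the shallower and the deeper of those droplets, but above its levels of 0.00491 (up to 0.0143) in CNS Neuron and 0.00336 (up to 0.0121) in Neuroectoderm/Glia. The Neuronal Progenitor interval overlapped those of Gut Mesenchyme/Amniotic Mesoderm (0.0188, 0.0109 to 0.0301) and Mesodermal Progenitor (0.0146, 0.00799 to 0.0245). The part of free RNA in these low levels was not tested.

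In 13 other types with 20 or more cells per suspension the same test was run within each type. Just Eng in Gut Mesenchyme/Amniotic Mesoderm passed the filter on low counts, and it was not called (adjusted p = 0.99996 by edgeR) where 180 of 11099 genes were (1.62%). Without the filter 89 pairs of gene and type could be tested and 1 was called, Kdr in Hepatocyte (log2 5.79, SE 1.53, adjusted p = 0.0309 by edgeR), where 0.623% of the 14275 genes tested there were called. Its UMIs were 4, 8, 0 and 0, and 7 of the 8 in F0_9 lay in the cell with 9 of the genes, so the call rests largely on 1 cell.

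The partners of these genes were read from fixed lists, and none of the genes tested in any list was called between founders and F1 in the type. Of 8 VEGF ligands and co-receptors 4 passed the filter, with a median log2 difference of 0.09 and 3 positive. Nrp1, a VEGF co-receptor, had 330 UMIs in the type, 161 in endothelial-gene and 168 in macrophage-gene cells (log2 0.03, SE 0.31), so it was shared by both. Nrp2, the co-receptor for VEGF-C, had 87 of 100 UMIs in endothelial-gene cells (log2 0.85, SE 0.42). Of 5 angiopoietins and TIE partners just Angpt1, the TEK ligand, passed (log2 -1.40, SE 0.59). It had 113 UMIs in the type, of which 2 were in endothelial-gene and 28 in macrophage-gene cells. The other 83 lay in the 3 cells with both or neither set of genes, 59 of them in 1 F1_mix cell that held all the Angpt1 of that suspension, so this log2 value rests largely on 1 cell. Angpt2 had 5 in the type.

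Of 11 genes of the endoglin pathway 7 passed the filter, with a median of -0.31 and 2 positive. Id3, a target of BMP signalling, had 321 of its 347 UMIs in the endothelial-gene cells and was found in all 26 of them (log2 -0.25, SE 0.46), while Tgfbr2, the TGF-beta type II receptor, had 53 of 183 there and 128 in macrophage-gene cells (log2 -0.38, SE 0.32). Of 12 cadherin and tight junction partners 7 passed, with a median of 0.15 and 4 positive. The catenins Ctnnb1 and Ctnna1, which link cadherins to actin, had 201 of 307 and 125 of 193 UMIs in the endothelial-gene cells (log2 0.20, SE 0.28, and 0.25, SE 0.39). Of 13 endothelial transcription factors 8 passed, with a median of 0.00131 and 5 positive. Mef2c had 759 of 964 UMIs in macrophage-gene cells, and Klf2, a flow-responsive factor, had 233 of 447 in endothelial-gene and 213 in macrophage-gene cells (log2 -0.61, SE 0.29).

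Genes whose level followed that of the 10 were sought over pairs of cell type and suspension, by Pearson correlation of log2 levels with 0.01 added, among 12100 other genes with 200 or more UMIs. With pairs of 20 or more cells (57 pairs, of which just 1 was of the type), the most alike were Rhoj (0.68) and Cd34 (0.66), then Dgkz, Aff1, Adgrf5, Elk3, Stim1, Rin3, Hspg2 and Stab1 (0.62). With pairs of 15 or more cells, so that all 4 suspensions of the type entered (61 pairs), Cd34 (0.78) came first, followed by Stab1, Adgrf5, Mrc1, Gimap6, Pik3ap1, Lyz2, Ptgs1, Plvap and Klhl6, and 3 genes were in both sets. Mrc1 and Lyz2 are macrophage genes, and 96.9% and 97.1% of their UMIs lay in the type. For single genes over the 57 pairs, the 3 most alike were Plvap (0.69), Cyyr1 and Dusp3 for Kdr, Mrc1 (0.67), Stab1 and Gimap6 for Flt1, and Tyrobp (0.73), Ngp and Adgre1 for Flt4. Calcrl (0.73), Gimap6 and Rasgrp3 were most alike to Tek, Fcgr3 (0.75), Lcp1 and Stab1 to Tie1, and Nfatc1 (0.80), Gngt2 and Jcad to Eng. For the adhesion and junction genes they were Stab1 (0.67), Lyz2 and Mrc1 for Pecam1, Lcp1 (0.72), Adgrf5 and Cd68 for Cdh5, and Fcgr3 (0.90), Ms4a6b and Fcrls for Cldn5, and for Emcn they were Cd38 (0.74), Gimap6 and Rasgrp3. Several of these, such as Fcgr3, Tyrobp and Adgre1, are myeloid genes with 98.9% to 99.1% of their UMIs in the type, most of whose cells were macrophage-gene cells. The pairs share 1 library and differ in depth, so the values are descriptions.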

How the data were processed

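Cells of E11.5 embryos had been tagged with multiplexing oligos, cleared of debris by sorting, and captured together with a 3′ droplet kit. The authors deposited UMI counts per gene and barcode, made with Cell Ranger (the file headers give 7.2.0, the methods text another release) on GRCm38 with EGFP added, and a cell table whose suspension and cell type columns, deposited by the authors and of unit other, were used. They removed doublets with DoubletFinder, and no further caller was run. The counts as deposited are not corrected for ambient RNA.

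Founders were F0_8 and F0_9 and the F1 generation F1_1 and F1_mix. The 10 genes, the partner and marker lists and the tests were chosen with earlier results of these data known. All 10 genes are named in each comparison, with the 2 genes of most UMIs in the type from each partner list, any called gene, and the genes most alike by correlation (10 for the sum, 3 for each gene). UMIs were summed per suspension and tested with edgeR 4.0.16 (TMM, filterByExpr, quasi-likelihood) in R 4.3.3, with Benjamini-Hochberg adjustment over all genes tested and a threshold of 0.05. Each suspension is 1 embryo or mix, so p-values measure the spread between these samples. Levels, shares and intervals came from scipy 1.17.1, pandas 2.3.3 and numpy 2.4.6 (Python 3.11.15), and figures from matplotlib 3.10.9. Gene positions and promoters came from RefSeq on GRCm38.p6. Depth was 289385 to 492752 gene UMIs per suspension in the type, which limits precision for genes of few UMIs. Alternatives were DESeq2 1.42.0, no TMM, no filter, cells under 5% mitochondrial UMIs, endothelial-gene cells, other denominators, thinning to 5000 UMIs, other class limits of 2 or 5 genes and each suspension left out. The limit of 9 reference genes, the pairs of 15 cells, the arterial and venous grouping of clear cells and the count without the top Tek cell were added after seeing the data. The 328 barcodes without a cell type were left out of the comparisons.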

Additional observations from a re-analysis of the deposited data

Results flagged for a closer look

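The 328 barcodes that the cell table leaves without a cell type, with 1767171 gene UMIs, held more of the 10 genes than the cells of the other types did. The summed level was 0.526 UMIs per 10000 (0.425 to 0.645) against 0.103 in the 15 other types. The interval of 6 genes lay above the level in those types, namely Pecam1 at 0.0962 against 0.0154, Cdh5 at 0.0849 against 0.00400, Kdr at 0.0792 against 0.0147, Flt1 at 0.0792 against 0.0157, Cldn5 at 0.0622 against 0.00178 and Tie1 at 0.0453 against 0.00178. Eng (0.0396 against 0.0209), Tek (0.0170 against 0.0129) and Flt4 (0.0113 against 0.00340) were higher and Emcn (0.0113 against 0.0127) lower, with intervals that held the level of the other types. Set against all used cells, the type included, fewer genes stood out. The intervals of Pecam1, Cdh5 and Tie1 still lay above the level there (0.0490, 0.0362 and 0.0155). Those of Kdr, Flt1 and Cldn5 held it (0.0468, 0.0490 and 0.0403), as did those of Eng, Tek and Flt4. Emcn (up to 0.0409) lay below its level of 0.0679. Of the 93 UMIs, 77 lay in 2 barcodes with 3 or more of the genes, and 1 barcode held 6 or more of the endothelial reference genes. The reason they lack a cell type was not tested.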

How the results depend on the processing

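With 2 suspensions a side and 26 endothelial-gene cells, the depth limits what can be seen, and the number of genes called in the type depended on the setting: 2 as reported, 7 with DESeq2, 92 without a filter on low counts, 0 in the endothelial-gene cells, 0 in the cells with 9 or more reference genes, and 17 to 85 with 1 suspension left out, where a lone sample is assumed to vary like the other group (75 without F0_8, 51 without F0_9, 85 without F1_1 and 17 without F1_mix). The cause was not tested. None of the 10 genes was called in the type under any of these. In other types 1 was called without a filter. The direction was kept in 82 of 100 alternative values for single genes and changed in 18. Kdr and Flt1 turned to -0.0186 and -0.0176 in the endothelial-gene cells and to -0.0847 and -0.13 in those with 9 or more reference genes, and Emcn to 0.0417 without TMM and 0.000658 in cells under 5% mitochondrial UMIs. With 1 suspension left out the log2 differences ranged from -0.80 to 0.68 for Kdr, -0.69 to 0.64 for Flt1, -0.34 to 0.59 for Tie1, -0.53 to 0.00348 for Eng, -0.46 to 1.35 for Pecam1, -0.56 to 1.13 for Cdh5, -0.0378 to 0.55 for Cldn5 and -0.67 to 0.45 for Emcn. Flt4 (0.69 to 1.47) and Tek (-1.15 to -0.02) kept their sign. The share of UMIs in the type was 77.8% in cells under 5% mitochondrial UMIs. The summed level in the type was 16.8 as a mean over cells and 12.2 to 16.7 with 1 suspension left out, without F0_8 and F0_9 respectively. The share of cells with any of the 10 genes was 46.7% after thinning and 52.6% at 2 or more UMIs. No paired analysis was possible because the suspensions carry no replicate numbers shared between founders and F1.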

Other observations

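Genes of other endothelial beds were also present in the 26 endothelial-gene cells, from lists that share no gene with the 10. Hapln1, a matrix link protein made in the embryonic heart, had 140 UMIs in 20 cells, Gata4, a cardiac factor, had 66 in 7, Nfatc1, a valve endocardium factor, had 46 in 11, and Npr3 had 34 in 6. Of the brain endothelium list Slc2a1, the glucose transporter GLUT1, had 92 UMIs in 17 cells and Lef1, a Wnt effector, 34 in 11, while Mfsd2a and Slco1c1 had 1 UMI each and Spock2 had none. The lymphatic genes Prox1 (18 UMIs) and Lyve1 (25 UMIs) were each found in 2 cells, and Pdpn in 1. Summed over these cells, founders against F1, edgeR tested 3 of the 4 endocardium genes and called none. Of these, 2 had an unadjusted p under 0.05 and 1 had a positive log2 difference, with a median of -1.11. Over all 2496 genes tested there, 98 had such a p. Of the brain endothelium list 1 gene was tested and not called, and 0 lymphatic genes passed the filter. Whether these beds were present was not tested.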
